A study of Mus musculus with 10 samples.

Results

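Serpins are a superfamily of proteins most of which inhibit serine proteases, and a few of which have lost that activity and serve as chaperones or carriers. The members were all genes of the mouse count table whose symbol is Serpin followed by a clade letter from a to i and a number, which gave 64 of 24594 genes: 25 in clade A, 28 in clade B, 3 in clade E, 2 each in clades F and I, and 1 each in clades C, D, G and H. Of the 64, 63 are annotated as protein coding and 1, Serpina3h, as a transcribed pseudogene. Transcript levels were measured by bulk RNA-seq in mammary epithelial cells of wild type C57BL/6J mice, from the gland of virgin animals, with 5 libraries of sorted luminal cells and 5 of sorted basal cells and no treatment. Flow cytometry on EpCAM and CD49f, 2 surface proteins, separated the cells, and the study's sorting used antibodies to TER-119, CD31 and CD45 against blood and endothelial cells. Each library is a bulk mixture of all cells in its gate. The comparison asks which genes differ in expression between the inner, luminal layer of the ducts and the outer, contractile basal (myoepithelial) layer.

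An inhibitory serpin presents an exposed loop as bait: the protease cuts it, the serpin refolds, and both proteins stay locked in a covalent complex. Most clade A, C, D, E, F and G serpins are secreted and act on clotting, fibrinolysis, complement and leukocyte proteases, whereas clade B serpins lack a classical signal peptide and act largely inside cells. In the mammary gland the family is best known for Serpinb5 (maspin), first described as a product of normal mammary epithelium that is lost in breast tumours, and for the plasminogen activator system, which takes part in remodelling of the gland.

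Library totals ran from 13203146 to 17998165 counts. Values are CPM, depth-scaled counts on the scaled library total,, and 3 counts, taken here as the floor of detection, correspond to 0.158 to 0.232 CPM depending on the library. The labels were checked against lineage markers: the 7 basal markers summed to 40.7 to 117.9 CPM in the libraries labelled luminal and to 12750 to 17560 CPM in those labelled basal, and the 9 luminal markers to 10040 to 14460 and 1358 to 1762 CPM, so each label is carried by the matching markers. In each of the 10 samples the title contradicts the cell type label, and the label was followed. Basal replicate 4 and luminal replicate 4 stood apart more often than the others: the highest value of a group stood apart from the other 4 in basal replicate 4 for 3.52% of the 14609 genes tested, against 0.308% to 1.08% for the other basal libraries, and in luminal replicate 4 for 2.89%, against 0.472% to 0.849%.

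Most Serpin genes with measurable transcripts were higher in basal cells, among them the collagen chaperone Serpinh1, the complement inhibitor Serping1 and the leukocyte protease inhibitor Serpina3n. Of the 16 Serpin genes with enough counts to be tested, 11 were higher in basal cells, against 31.2% of all genes tested, and 1 was higher in luminal cells, against 33.6% of all genes tested, at an adjusted p under 0.05 (edgeR quasi-likelihood test, Benjamini-Hochberg adjustment over all genes). The remaining 4 did not pass, and 15 of the 16 estimates pointed to basal cells. In 8 of the 16 the ranges of luminal and basal libraries were separate, which is close to the 50.1% of all genes tested. The median log2 fold change, luminal against basal throughout, was -2.32 over the Serpins tested, where the median over all genes tested was 0.05. In bulk libraries of a sorted population, fewer cells that express a gene and less RNA per cell cannot be told apart.

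Summed over all 64 members, Serpin transcripts made up 321 ± 70.3 CPM in luminal and 2997 ± 366 CPM in basal libraries (SD, n = 5). Serpinh1 alone took 65.2% to 72.1% of the basal sum and 20.8% to 40.9% of the luminal sum. Without it the sums were 225 ± 31.9 CPM in luminal and 934 ± 164 CPM in basal libraries (SD, n = 5), a ratio of 4.16 in place of 9.33. By clade, 5 of the 8 clade B genes tested and 6 of the 8 tested outside clade B were higher in basal cells. The share over all genes tested was 31.2%. The median log2 fold changes of the 2 sets were -1.62 and -2.73. Without basal replicate 4 the clade B median over the same 8 genes was -1.11. The clade B calls of Serpinb2 and Serpinb10 were then not made (adjusted p = 0.384 and 0.541, edgeR).

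**Figure D1:**
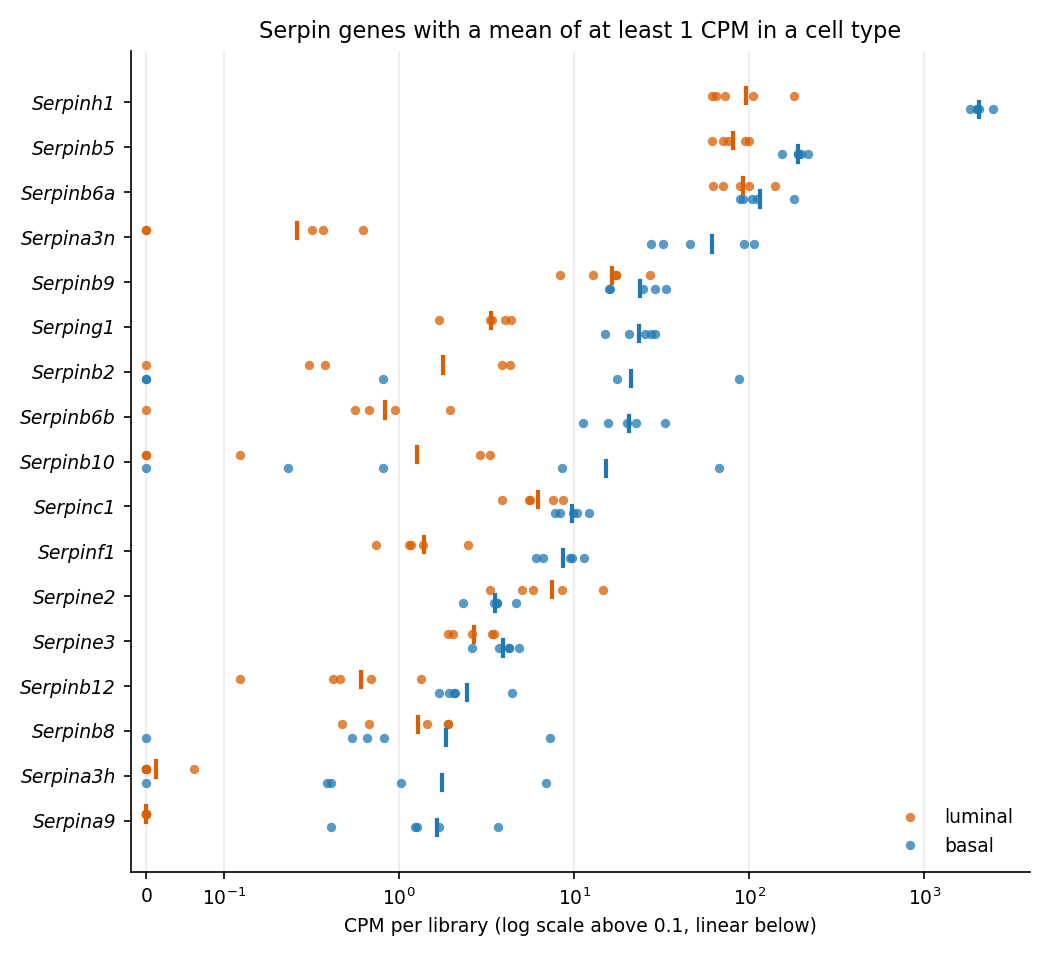
CPM in each library (points) and group mean (bars) for 17 Serpin genes with a mean of at least 1 CPM in luminal (orange) or basal (blue) cells, ordered by the higher mean, on an axis that is logarithmic above 0.1 CPM and linear below. Serpinh1, Serpina3n, Serpinb6b, Serping1, Serpinf1, Serpinb5, Serpinb12 and Serpina9 show no overlap between the cell types, and Serpine2 is the one gene called higher in luminal cells.

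Serpinh1 (chromosome 7, 99345375 to 99353239, GRCm38.p6), also called HSP47, is a non-inhibitory serpin that resides in the endoplasmic reticulum and binds folding procollagen. Its level was 105, 72.2, 61.1, 64.5 and 179 CPM in luminal replicates 1 to 5 and 1991, 1990, 2453, 2054 and 1824 CPM in basal replicates 1 to 5. Every basal library was above every luminal one, by a log2 fold change of -4.42 ± 0.31 (SE) with an adjusted p of 1.91e-08 (edgeR). Luminal replicate 5 held the highest luminal value and still lay under the lowest basal value. It also held the highest luminal sum of basal markers, 117.9 CPM where the other 4 had 40.7 to 93.1 CPM, and the part of basal RNA in its Serpinh1 value was not tested. The luminal mean was 4.67% of the basal mean, while the 7 basal markers stood in luminal libraries at 0.143% (Myh11) to 0.878% (Krt17) of their basal means.

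Among 19 genes for collagens and the enzymes and chaperones that act with Serpinh1 on them, 16 were higher in basal cells, against 31.2% of all genes tested, and 3 did not pass, with a median log2 fold change of -2.52 (edgeR). The 3 that did not pass were Col1a1, Col1a2 and Col3a1, all fibrillar chains. In luminal and basal cells Col1a1 was at 5.32 and 3.58 CPM, Col1a2 at 4.84 and 3.55 CPM and Col3a1 at 5.96 and 4.47 CPM. Col5a1 and Col5a2, also fibrillar chains, were higher in basal cells. They stood at 0.509 and 1.08 CPM in luminal against 10.3 and 11.7 CPM in basal cells. The basement membrane chains Col4a1 and Col4a2 were among the 4 that differed most, at 10.4 and 6.398 CPM in luminal against 795 and 725 CPM in basal cells. Sparc, a collagen-binding matrix protein, stood at 7.06 and 987 CPM, and P3h2, a prolyl 3-hydroxylase that modifies type IV collagen, at 0.664 and 33.5 CPM. P4hb, the common subunit of prolyl 4-hydroxylase and a general disulphide isomerase, was high in both cell types, at 1350 and 3040 CPM.

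Serpine2 (chromosome 1, 79794317 to 79858665), protease nexin 1, inhibits thrombin and urokinase, and its estimate was the only one on the luminal side. Luminal replicates 1 to 5 held 5.82, 5.00, 3.31, 8.55 and 14.5 CPM, and basal replicates 1 to 5 held 3.49, 2.32, 3.64, 3.63 and 4.68 CPM. The groups overlapped, since luminal replicate 3 lay among the basal values, and luminal cells were higher in 4 of 5 same-numbered pairs. The difference was 1.06 ± 0.37 on the log2 scale (SE, adjusted p = 0.0200, edgeR). The call did not hold without luminal replicate 5 (log2 fold change 0.67, adjusted p = 0.0864) or without basal replicate 2 (0.93, adjusted p = 0.0533), nor with limma voom (0.88, adjusted p = 0.0587).

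Serpine3 (chromosome 14, 62663298 to 62692243), a little studied member of the same clade, was at 2.68 ± 0.742 CPM in luminal and 3.94 ± 0.854 CPM in basal libraries (SD, n = 5). Basal was higher in 5 of 5 pairs, but the groups overlapped and the log2 fold change of -0.56 ± 0.30 (SE) had an adjusted p of 0.123 (edgeR). Of its 51-base stretches, 15.5% also occur in Ints6 on the opposite strand, whose reads cannot be told apart from it without strand information.

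The genes of both plasminogen activators, which several serpins inhibit, and of 2 clearance receptors were higher in basal cells. Of 9 tested genes of plasminogen activation and clearance, 4 were higher in basal cells, 2 higher in luminal cells and 3 did not pass. Over all genes tested the shares were 31.2% and 33.6%, so the counts of this list, and the small lists of complement and coagulation genes after it, are given as description only. The urokinase gene Plau was at 14.7 ± 4.26 CPM in luminal and 97.0 ± 21.2 CPM in basal libraries, and the tissue activator gene Plat at 1.20 ± 0.802 and 60.3 ± 12.9 CPM (SD, n = 5), with log2 fold changes of -2.72 and -5.62. Lrp1 and Vldlr, endocytic receptors that clear protease-serpin complexes, had log2 fold changes of -6.27 and -3.20. The exceptions were Sorl1, a sorting receptor that also binds these complexes, at 242 CPM in luminal and 50.96 CPM in basal cells, and Anxa2, a plasminogen-binding annexin, at 667 and 308 CPM. Plaur, the urokinase receptor, did not pass (log2 fold change -0.51, adjusted p = 0.0956, edgeR). Serpinf2, which encodes the main plasmin inhibitor of plasma, held 23 counts over all 10 libraries and was not tested.

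Serpina3n (chromosome 12, 104406646 to 104414334) is a secreted inhibitor of leukocyte proteases such as granzyme B and one of many mouse copies that stand for the single human SERPINA3 gene. It was nearly absent from luminal cells, with 0.625, 0, 0.368, 0 and 0.317 CPM in replicates 1 to 5, and reached 27.4, 32.2, 105.8, 93.2 and 45.7 CPM in basal replicates 1 to 5. The groups did not overlap, although basal libraries differed among themselves by more than those of Serpinh1, with replicates 3 and 4 highest. The log2 fold change of -7.81 ± 0.63 (SE, adjusted p = 8.13e-08, edgeR) was the most negative among the Serpins tested. Its luminal mean was 0.431% of the basal mean, within the range of the basal markers.

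Copies of Serpina3 are close in sequence, and 6.41% of the 51-base stretches of Serpina3n occur in another gene. Serpina3n held 94.9% of the 4801 counts of the 11 Serpina3 members, and summing these members gave -7.30 ± 0.53 (log2 fold change ± SE, adjusted p = 3.12e-08, edgeR). The pseudogene Serpina3h was below the testing filter, with counts of 0, 6, 5, 111 and 17 in basal replicates 1 to 5 and at most 1 in any luminal library. Basal replicate 4 carried most of its counts, and 21.2% of its 51-base stretches are shared, so its level is uncertain.

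Serpina9, known as centerin from germinal centre B cells, was also below the filter, yet all its reads came from basal libraries. Its counts were 27, 6, 16, 59 and 21 in basal replicates 1 to 5 and 0 in each of the 5 luminal libraries. The basal mean of 1.66 CPM was at least 8.72-fold higher than 3 counts per luminal library would be. It was the only clade A gene besides Serpina3n whose libraries did not overlap between the groups and whose mean reached 1 CPM.

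Serping1 (chromosome 2, 84765360 to 84775444) encodes the C1 inhibitor, which blocks the first complement proteases and the contact proteases kallikrein and factor XII. Its level was 4.38, 1.69, 3.37, 4.05 and 3.30 CPM in luminal replicates 1 to 5 and 15.1, 25.2, 27.5, 29.1 and 20.7 CPM in basal replicates 1 to 5. No library of one group reached the other, with a log2 fold change of -2.81 ± 0.27 (SE, adjusted p = 4.89e-07, edgeR).

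The genes of the C1r and C1s proteases, which Serping1 inhibits, were higher in basal cells as well. Of 8 tested complement proteases, 4 were higher in basal cells, 2 were higher in luminal cells and 2 did not pass. C1s1 stood at 15.3 ± 9.40 CPM in luminal and 117 ± 58.3 CPM in basal libraries, and C1ra at 9.25 ± 2.44 and 21.4 ± 7.84 CPM (SD, n = 5). The 2 higher in luminal cells were C2 (29.6 and 4.56 CPM) and Cfb (32.4 and 12.8 CPM), which encode the proteases of the complement convertases.

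Serpinf1 (chromosome 11, 75410029 to 75422623), pigment epithelium-derived factor, is a secreted anti-angiogenic protein without protease inhibition. It was at 1.38, 0.737, 1.17, 1.15 and 2.47 CPM in luminal replicates 1 to 5 and at 9.48, 11.3, 9.75, 6.63 and 6.05 CPM in basal replicates 1 to 5. The groups did not overlap (log2 fold change -2.64 ± 0.34 SE, adjusted p = 1.00e-05, edgeR).

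Serping1 and Serpinf1 are also widely expressed by fibroblasts, so fibroblast markers are given beside them. Of 8 such markers, 3 were higher in basal and 1 was higher in luminal cells. Over all genes tested the shares were 31.2% and 33.6%, here and for the markers below. The 8 markers summed to 23.7 to 112 CPM in luminal and to 65.5 to 118 CPM in basal libraries. The collagen Col1a1 was at 5.32 and 3.58 CPM and Dcn at 38.3 and 12.0 CPM in luminal and basal cells, while Fbln1 was at 0.717 and 43.6 CPM, Pdgfrb at 0.676 and 9.84 CPM and Pdgfra at 5.82 and 12.4 CPM. Endothelial and adipocyte markers were low, and 2 of 4 endothelial markers tested and the 1 adipocyte marker tested were higher in basal cells. The 6 endothelial markers summed to 2.69 to 7.10 CPM in luminal and 9.44 to 16.9 CPM in basal libraries, with Cdh5 at 0.217 and 4.58 CPM and Cldn5 at 0.136 and 2.75 CPM. The 5 adipocyte markers summed to 0.611 to 1.59 CPM and 3.95 to 9.13 CPM, with Adipoq at 0 in all 10 libraries. The part of fibroblast, endothelial or adipocyte RNA in the Serping1 and Serpinf1 values, and in those of the other genes higher in basal cells, was not tested.

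Serpinc1 (chromosome 1, 160978583 to 161002543) encodes antithrombin, the liver-made inhibitor of thrombin and factor Xa. It was at 5.63, 5.53, 7.55, 8.63 and 3.87 CPM in luminal replicates 1 to 5 and at 7.73, 8.32, 9.90, 12.2 and 10.4 CPM in basal replicates 1 to 5. Basal was higher in 5 of 5 pairs although the groups overlapped, with a log2 fold change of -0.64 ± 0.24 (SE, adjusted p = 0.0323, edgeR). The call did not hold with library totals only (-0.45, adjusted p = 0.131) or upper-quartile factors (-0.51, adjusted p = 0.0842), nor without luminal replicate 1, 2 or 5 or basal replicate 3, 4 or 5, where the adjusted p was between 0.0621 and 0.0749 (edgeR). Serpinc1 shares 2942 of its 8546 exon bases with Zbtb37 on the opposite strand, and 33.5% of its 51-base stretches occur in other genes, so reads of Zbtb37 may be among its counts. Liver markers summed to at most 0.458 CPM in any library, with Ttr and Ahsg at 0 in all 10.

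Coagulation genes went both ways. Of 7 tested, 4 were higher in basal and 2 higher in luminal cells. F3, tissue factor, was at 731 ± 173 CPM in luminal and 61.8 ± 22.0 CPM in basal libraries (SD, n = 5), and the thrombin receptor F2r at 0.638 and 11.4 CPM, with log2 fold changes of 3.56 and -4.15. F2rl1, a receptor cleaved by trypsin-like proteases, was at 29.7 and 48.7 CPM in luminal and basal cells (log2 fold change -0.71, adjusted p = 0.00944, edgeR). Proc, which encodes the protease protein C, was measured only in luminal libraries, at a mean of 7.75 CPM against 0 in all basal libraries. Serpind1, heparin cofactor II, held 39 counts over 10 libraries and was not tested.

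**Figure D2:**
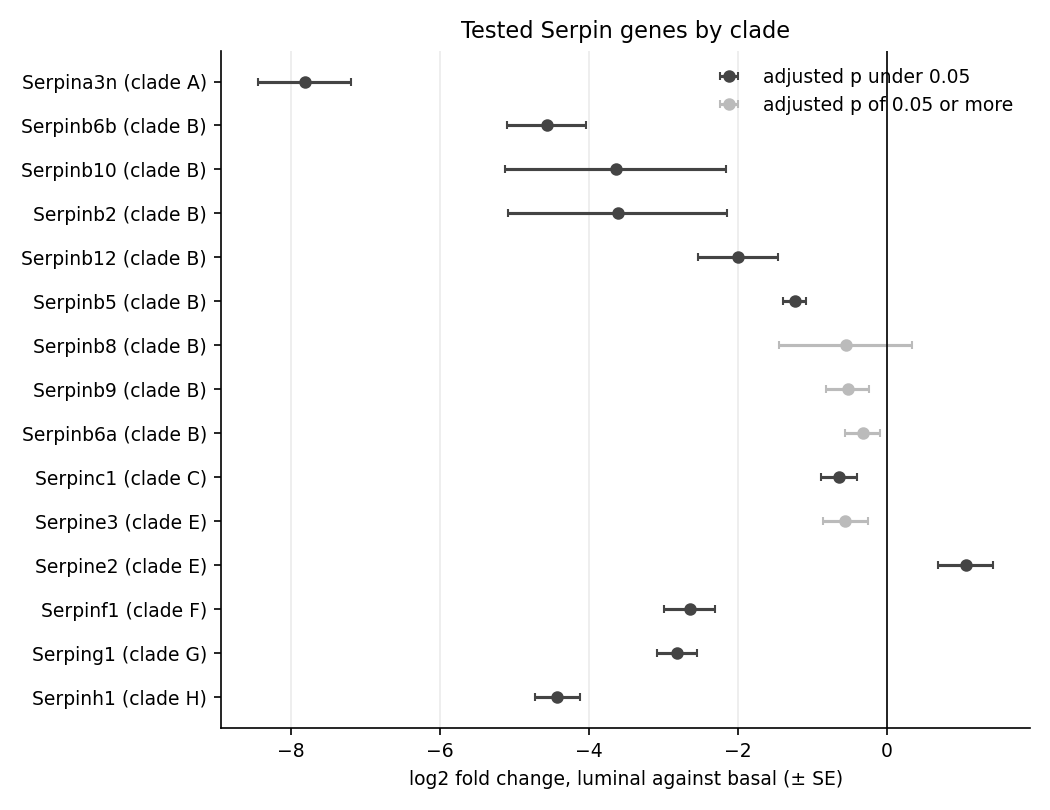
Log2 fold change, luminal against basal, with its SE, of 15 of the Serpin genes tested, grouped by clade; dark points have an adjusted p under 0.05 and grey points do not. Serpina3n lies farthest to the basal side at -7.81, Serpine2 is the only point to the right of 0 at 1.06, and Serpinb2 and Serpinb10 have the widest errors.

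The intracellular clade B genes lie in 2 stretches of the genome, 12 on chromosome 1 (106861175 to 107608978) and 16 on chromosome 13 (32842092 to 34002794, GRCm38.p6). On chromosome 13, 3 of the 16 genes were tested and 1 was called higher in basal cells, against 31.2% of all genes tested. Serpinb6a (33917918 to 34002794), an inhibitor of cathepsin G and trypsin-like proteases, was at 91.9 ± 30.4 CPM in luminal and 115 ± 37.2 CPM in basal libraries (SD, n = 5). The difference did not pass (log2 fold change -0.32, 95% interval -0.79 to 0.14, adjusted p = 0.246, edgeR). It did pass without luminal replicate 4 (-0.52, adjusted p = 0.0451, edgeR) and without pairs 4 and 5 (-0.49, adjusted p = 0.0361, edgeR). Without basal replicate 4, its highest library, the value was -0.11 (adjusted p = 0.646, edgeR).

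Serpinb6b (32956811 to 32979067), a close copy of Serpinb6a, was nearly absent from luminal cells. Luminal replicates 1 to 5 held 0.563, 1.95, 0.675, 0 and 0.952 CPM, and basal replicates 1 to 5 held 20.02, 33.1, 22.6, 11.2 and 15.6 CPM. The groups did not overlap, with a log2 fold change of -4.56 ± 0.53 (SE, adjusted p = 3.63e-06, edgeR). Serpinb6a made up 98.8% of the counts of the 5 Serpinb6 copies in luminal and 85% in basal cells. Summed over these copies the log2 fold change was -0.55 ± 0.22 (SE) and passed, with an adjusted p of 0.0415 (edgeR). Of the 51-base stretches of Serpinb6a, 25% occur in other genes, and 12.4% occur in Nqo2, which like 1110046J04Rik and Ripk1 overlaps its exons on the opposite strand. For Serpinb6b the shared portion was 2.74%.

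Serpinb9 (32997061 to 33017955), the granzyme B inhibitor by which cells guard themselves against cytotoxic granules, was at 16.5 ± 6.95 CPM in luminal and 23.9 ± 7.81 CPM in basal libraries (SD, n = 5). The log2 fold change of -0.52 ± 0.29 (SE) had an adjusted p of 0.130, and with the replicate number as a block it was -0.57 ± 0.20 with an adjusted p of 0.0276 (edgeR). The call was also made without luminal replicate 2 (-0.76, adjusted p = 0.0309). Basal was higher in 4 of 5 pairs. Of the 11 granule serine proteases that such inhibitors meet, 1 had enough counts to be tested, Prtn3, at 0.650 CPM in luminal and 6.68 CPM in basal cells.

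On chromosome 1, 5 of the 12 genes were tested and 4 were higher in basal cells, against 31.2% of all genes tested. Of these 4, Serpinb2 and Serpinb10 did not pass without basal replicate 4 (adjusted p = 0.384 and 0.541, edgeR). Serpinb5 (106861175 to 106883348), maspin, is a non-inhibitory serpin of epithelia. It was at 76.0, 94.4, 71.0, 61.2 and 100.2 CPM in luminal replicates 1 to 5 and at 153, 217, 198, 191 and 189.6 CPM in basal replicates 1 to 5. The ranges were separate, and the log2 fold change of -1.23 ± 0.16 (SE, adjusted p = 9.39e-06, edgeR) had the smallest SE among the Serpins tested. The luminal mean was 42.5% of the basal mean, so maspin was a transcript of both layers.

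Serpinb12 (106934449 to 106957080), an inhibitor of trypsin-like proteases, was low but followed the same direction. Luminal replicates 1 to 5 held 0.688, 0.421, 0.123, 0.458 and 1.33 CPM, and basal replicates 1 to 5 held 1.68, 4.43, 2.09, 2.06 and 1.92 CPM. The groups did not overlap (log2 fold change -2.0 ± 0.54 SE, adjusted p = 0.00460, edgeR). Basal replicate 2 was the highest, and the other 4 basal libraries lay within 1.68 to 2.09 CPM.

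At the far end of the same stretch, Serpinb7, Serpinb2, Serpinb10 and Serpinb8 follow each other, and each had its highest value in basal replicate 4. Serpinb2 (107500892 to 107525600), plasminogen activator inhibitor type 2, had counts of 6, 0, 5, 51 and 68 in luminal replicates 1 to 5 and of 13, 0, 0, 1400 and 294 in basal replicates 1 to 5. Serpinb10 (107528994 to 107560742), bomapin of haematopoietic cells, had counts of 0, 0, 2, 38 and 52 in luminal and of 13, 0, 3, 1068 and 143 in basal replicates 1 to 5. In both genes and both cell types replicates 4 and 5 were the highest, and basal replicate 4 held most counts. Same-numbered libraries share the leading number of their library names, read here as the animal.

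The log2 fold changes were -3.61 ± 1.47 for Serpinb2 and -3.64 ± 1.48 for Serpinb10 (SE, adjusted p = 0.0435 for each, edgeR), and the groups overlapped. Without basal replicate 4 they were -1.42 (adjusted p = 0.384) and -0.97 (adjusted p = 0.541), and neither call was made without basal replicate 5 or without luminal replicate 1, 2 or 3, nor with upper-quartile factors (adjusted p = 0.0511 for each), DESeq2 (adjusted p = 0.135 and 0.133) or limma voom (0.590 and 0.298). With the replicate block the log2 fold changes were smaller, at -2.46 (adjusted p = 0.0218) and -2.92 (adjusted p = 0.00553, edgeR). The 2 genes share 291 exon bases on the same strand, and 10.3% of the 51-base stretches of Serpinb2 and 6.94% of those of Serpinb10 are common to both. Serpinb2 counts were 1.31 times those of Serpinb10 in basal replicate 4, 2.06 times in basal replicate 5, and 1.34 and 1.31 times in luminal replicates 4 and 5.

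Serpinb7 had 39 counts in basal replicate 4, 3 in basal replicate 5 and at most 1 in any other library, and was not tested. Serpinb8 (107589926 to 107608978), reported to inhibit furin, was at 7.25 CPM in basal replicate 4 and at 0 to 0.819 CPM in the other basal libraries, against 0.474 to 1.91 CPM in luminal libraries. Its log2 fold change of -0.55 ± 0.89 (SE, adjusted p = 0.608, edgeR) turned to 1.31 without basal replicate 4 (adjusted p = 0.131). Beyond Serpinb8, Cdh7 was too low to compare, and Cdh19 was at 0.563 CPM in basal replicate 4 against a basal mean of 0.415 ± 0.0955 CPM (SD, n = 5). At the other end of the stretch, before Serpinb5, Kdsr was at 48.1 CPM in basal replicate 4 against a basal mean of 46.5 ± 5.83 CPM, and Vps4b at 109 against 107 ± 8.63 CPM (SD, n = 5).

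Serpinb2 and Serpinb10 are known from macrophages and other myeloid cells, so immune markers are given beside them. The 9 markers summed to 15.7 to 21.8 CPM in luminal and 26.4 to 52.9 CPM in basal libraries, with the highest sum in basal replicate 4, where Cd74 gave 30.5 and Csf1r 18.4 CPM. Cd52 and Lyz2 were also highest there among basal libraries, at 3.06 CPM against 0.300 to 0.998 CPM and at 0.875 CPM against 0.0774 to 0.409 CPM, and both had higher means in luminal cells, of 4.65 and 1.31 CPM. In basal replicate 5, the second highest for both Serpins, the sum was the lowest of the basal libraries. Luminal replicates 4 and 5, the highest luminal libraries for both Serpins, had the highest luminal sums, at 21.8 and 20.2 CPM against 15.7 to 17.5 CPM in the others. The same 2 libraries also had the highest luminal sums of basal markers, at 93.1 and 117.9 CPM against 40.7 to 53.3 CPM in the others. Cd3e and Nkg7 were at 0 in all 10 libraries, and Ptprc was at 0 in basal replicates 3, 4 and 5. Tyrobp, another of the 9 markers, was at 0 in basal replicates 4 and 5 and at most 0.232 CPM in the other basal libraries. Its highest value was 1.46 CPM, in luminal replicate 5. The part of immune RNA in the Serpinb2 and Serpinb10 values was not tested, nor was the part of basal RNA in their luminal values.

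**Figure D3:**
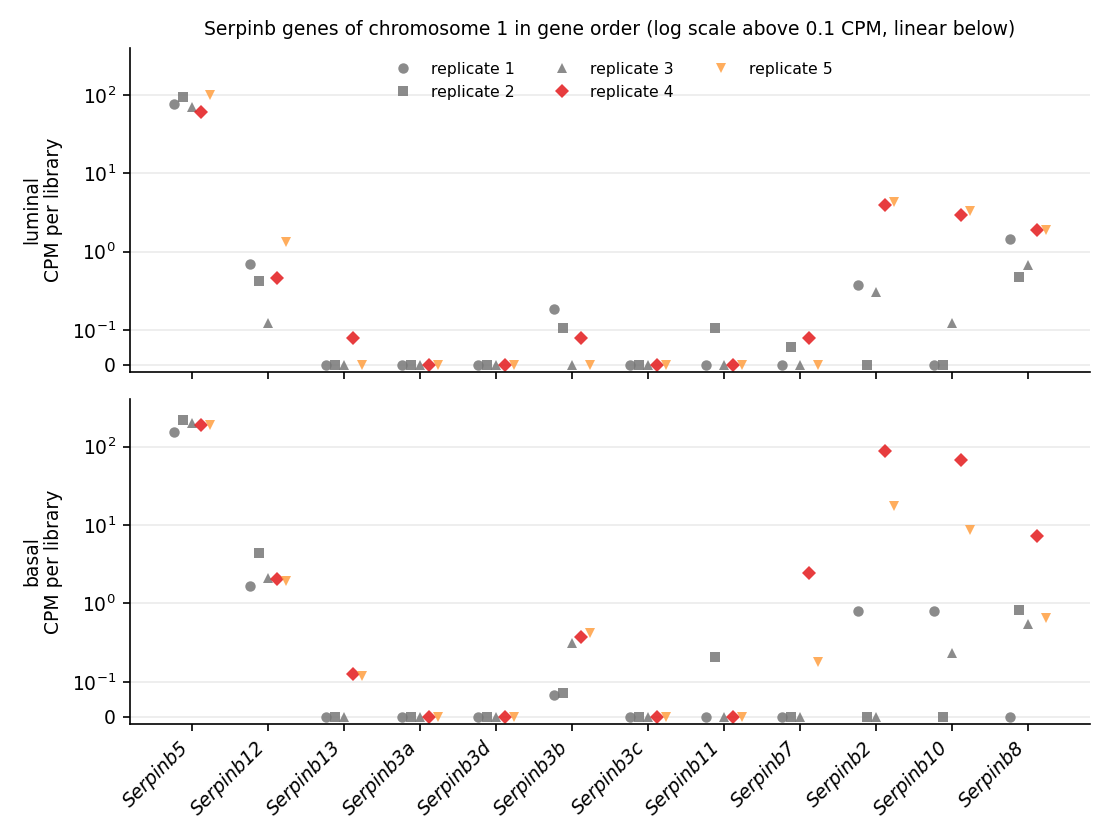
CPM of the 12 Serpinb genes of chromosome 1 in each library, in gene order, for luminal (top) and basal (bottom) cells, on an axis that is logarithmic above 0.1 CPM and linear below; replicate 4 is red and replicate 5 orange. Serpinb5 varies little within each cell type, while Serpinb7, Serpinb2, Serpinb10 and Serpinb8 peak in basal replicate 4, at 87.5 CPM for Serpinb2 and 66.8 CPM for Serpinb10.

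Promoter sequences of the chromosome 1 genes are shown because the neighbours Serpinb7, Serpinb2, Serpinb10 and Serpinb8 each had their highest value in basal replicate 4. Serpinb5, Serpinb12 and Serpinb11, also shown, did not. Promoters, from 250 bases before to 50 bases after each start site, came from RefSeq (GRCm38.p6) and were found for 54 of the 64 members, 63 promoters in all. The motif TGANTCA, read on both strands, is a looser form of TGAGTCA, the core that AP-1 factors are known to bind. TGANTCA occurred in promoters of 7 of the 11 chromosome 1 Serpinb genes with a promoter, 0 of 15 chromosome 13 Serpinb genes and 4 of 18 chromosome 12 Serpina genes, against 7.81% of all 32851 promoters. The strict core TGAGTCA, on both strands, occurred in 2 of the 11 chromosome 1 genes (Serpinb7 and Serpinb8), 0 of the 15 and 4 of the 18, against 5.2% of all promoters. The other 5 chromosome 1 genes hold only forms with A or T at the open position. The 4 chromosome 12 genes are the copies Serpina1a, Serpina1b, Serpina1c and Serpina1d, each with 1 match between -240 and -229 from its start site. Their sequences around it are nearly the same, so the 4 are not independent. TATAAA, on both strands, occurred in promoters of 7, 2 and 4 of the same genes, against 13.6% of all promoters. GAANNTTC, on both strands, was in 9.52% of the 63 member promoters against 7.86% of all, and the CArG box in 1.59% against 1.63%. These are matches of letters and say nothing about binding. One match in each of 5 genes follows with 20 bases on either side, on the plus strand and with TGANTCA in capitals, and Serpinb11 and Serpinb8 each hold 1 further match.
Serpinb5 (chr1:106861015-106861061): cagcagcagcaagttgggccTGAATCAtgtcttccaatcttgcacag
Serpinb12 (chr1:106934384-106934430): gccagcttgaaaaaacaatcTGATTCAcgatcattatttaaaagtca
Serpinb11 (chr1:107362218-107362264): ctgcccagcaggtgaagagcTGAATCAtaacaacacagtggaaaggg
Serpinb7 (chr1:107422624-107422670): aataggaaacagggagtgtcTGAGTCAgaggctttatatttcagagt
Serpinb8 (chr1:107589963-107590009): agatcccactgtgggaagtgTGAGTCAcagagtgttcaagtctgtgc

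For Serpinb2 and Serpinb10, the pair with the library-bound counts, the whole windows are given on the plus strand, with TGANTCA and TATAAA matches in capitals. Serpinb2 holds both motifs, TGAATCA at -94 and TATAAA at -29 from the start site of the window shown. From a further annotated start site they lie at -181 and -116. Both start sites lie inside the Serpinb2 span of 107500892 to 107525600, not at its beginning. Serpinb10 holds TGAATCA at -54 and no TATAAA.
Serpinb2 (chr1:107511173-107511472): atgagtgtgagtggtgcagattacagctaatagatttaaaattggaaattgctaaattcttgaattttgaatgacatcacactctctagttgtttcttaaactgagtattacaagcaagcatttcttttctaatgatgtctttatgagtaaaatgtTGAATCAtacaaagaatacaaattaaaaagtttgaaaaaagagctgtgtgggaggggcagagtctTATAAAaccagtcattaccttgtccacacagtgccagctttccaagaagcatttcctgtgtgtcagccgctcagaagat
Serpinb10 (chr1:107528753-107529052): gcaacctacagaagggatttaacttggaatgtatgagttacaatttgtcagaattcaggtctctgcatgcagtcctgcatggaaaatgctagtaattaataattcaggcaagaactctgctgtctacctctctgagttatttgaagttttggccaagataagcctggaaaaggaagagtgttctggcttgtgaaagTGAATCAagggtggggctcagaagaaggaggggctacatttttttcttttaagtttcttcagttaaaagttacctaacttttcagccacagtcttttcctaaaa

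Most Serpins had few or no counts. Of the 64 members, 17 had 0 counts in all 10 libraries and 48 were not tested, of which 46 had a mean under 1 CPM in both cell types, with no more than 82 counts over all libraries. The 25 clade A members, which include the plasma elastase inhibitors of the Serpina1 group, summed to 0.609 ± 0.309 CPM in luminal and 66.1 ± 38.4 CPM in basal libraries (SD, n = 5). Serpina3n made up 60.9 CPM of the basal mean and 0.262 CPM of the luminal mean. The 6 Serpina1 copies held 19 counts in all. Of the 51-base stretches, 79% of those of Serpina1c and 57.3% of those of Serpina1a occur in other genes, so counts of such copies are uncertain. Serpini1 (neuroserpin), with 82 counts, was at 0.203 CPM in luminal and 0.826 CPM in basal cells. Serpinb1a and its copies, the elastase inhibitors of leukocytes, held 58 counts, and the Serpinb3 copies, of squamous epithelia, held 25.

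Levels can be compared between genes only per length of transcript, here as CPM per kilobase of all annotated exons. Among the genes described here, Serpinh1 led in basal libraries with 844 ± 95.9 CPM per kilobase, followed by Serpinb5 at 69.0 ± 8.48, Serpina3n at 29.5 ± 17.5 and Serpinb6a at 21.2 ± 6.87 (SD, n = 5). Serpinh1 lay above Serpinb5 in all libraries, and Serpinb5 above Serpina3n, whereas the ranges of Serpina3n and Serpinb6a overlapped. In luminal libraries the order was Serpinh1 at 39.4 ± 20.3, Serpinb5 at 29.3 ± 5.94 and Serpinb6a at 16.99 ± 5.63 CPM per kilobase (SD, n = 5), with overlapping ranges between neighbours. Serpinb9 followed at 4.73 ± 1.99 CPM per kilobase, below Serpinb6a in all libraries. The luminal Serpin transcripts were thus mainly the chaperone Serpinh1 and the intracellular Serpinb5 and Serpinb6a, and the basal ones also included the secreted Serpina3n.

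Inhibitors outside the Serpin family went mainly the other way. Of 14 tested genes of the Kunitz, Kazal, WAP and cystatin families and related inhibitors, 8 were higher in luminal cells and 2 were higher in basal cells, against 33.6% and 31.2% of all genes tested, with a median log2 fold change of 0.95. Wfdc18 was at 486 ± 177 CPM in luminal and 0.586 ± 0.244 CPM in basal libraries, and Wfdc2 at 686 ± 106 and 17.2 ± 2.62 CPM (SD, n = 5). Slpi, an inhibitor of leukocyte elastase, was an exception, at 66.1 ± 38.9 CPM in luminal and 2247 ± 358 CPM in basal libraries (SD, n = 5; log2 fold change -5.09). Wfdc12, another WAP protein, was at 15.04 and 0.246 CPM.

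Epithelial serine proteases, which include the membrane-bound and kallikrein-type enzymes, also lay mainly on the luminal side. Of 16 tested, 11 were on the luminal side and 4 on the basal side at this threshold, against the same 33.6% and 31.2% of all genes, with a median log2 fold change of 2.70. Tmprss2 was at 157 and 5.22 CPM, Tmprss6 at 35.4 and 1.92 CPM and Prss22 at 12.8 and 0.398 CPM in luminal and basal cells, whereas Prss23, a secreted protease, was at 25.3 and 654 CPM. Cysteine cathepsins went both ways, and of 9 tested, 4 were higher in luminal cells and 2 in basal cells, numbers close to the shares over all genes. Ctsl was at 278 and 634 CPM, Ctsc, the activator of granule proteases, at 10.9 and 57.4 CPM, Ctsh at 130.4 and 63.3 CPM and Ctso at 13.9 and 7.64 CPM.

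**Figure D4:**
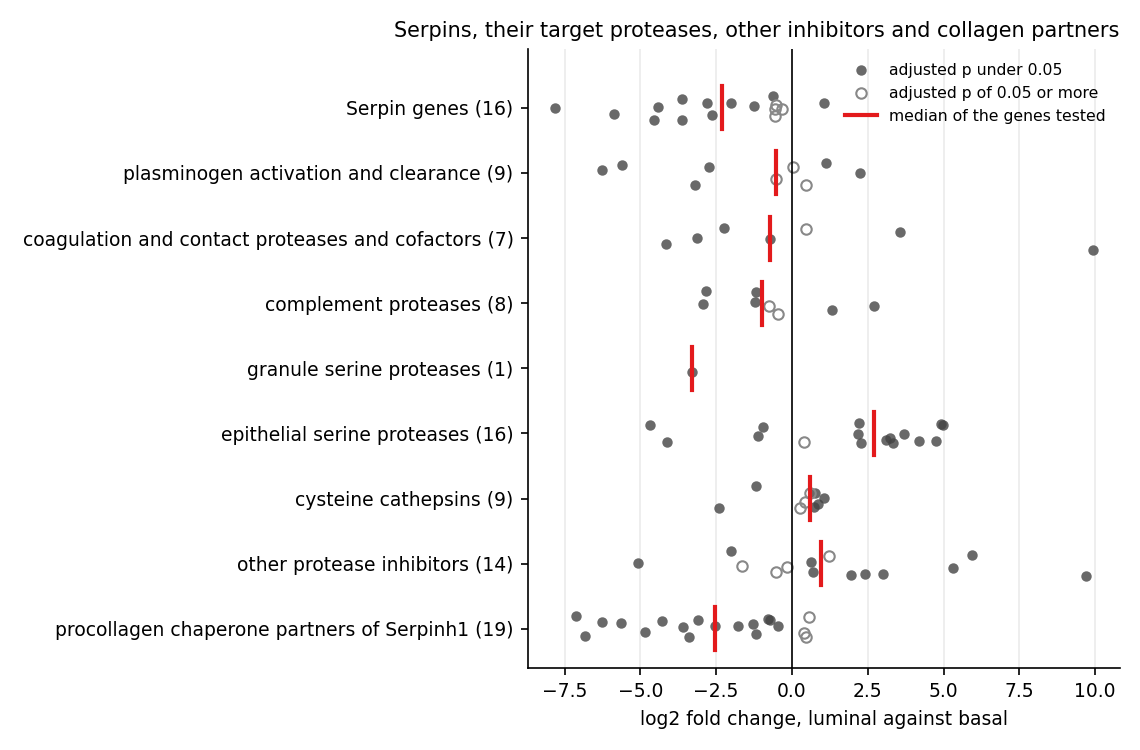
Log2 fold change, luminal against basal, of each tested gene in the Serpin family and in the companion lists (number of genes tested in brackets); filled points have an adjusted p under 0.05, and red bars are medians. The Serpin median of -2.32 and the collagen partner median of -2.52 lie on the basal side, and those of the epithelial serine proteases (2.70) and other protease inhibitors (0.95) on the luminal side.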

How the data were processed

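The deposited table holds whole-number counts per gene, unnormalized, for 10 RNA-seq libraries, 5 luminal and 5 basal. The submitters' processing notes name cutadapt 4.2 and Bowtie2 2.3.5.1 and the builds mm10 and hg19, without saying what each was used for, and the Entrez identifiers of the table are those of mouse genes. The counting tool and its handling of strand and multiply mapping reads are not given in the sources used here, so counts of overlapping genes and of near-identical copies are uncertain. Bowtie2 does not align across splice junctions. Groups follow the cell type label. Same-numbered libraries carry one leading number in their names, read as the animal, though the labels do not say so, and p-values then measure the spread between these libraries only; deviations from the group means correlated between same-numbered libraries at -0.105 to 0.169 (mean 0.0367) and between others at a mean of -0.00631. No 2 replicates agreed within sampling noise.

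Symbols came from RefSeq (GRCm38.p6) for 24570 of 24594 genes, exon lengths and shared 51-base stretches from GENCODE M21, which holds 63 of the 64 members. Genes were filtered with filterByExpr (minimum count 10, minimum total 15), leaving 14609, scaled with TMM and tested with edgeR 4.0.16 (quasi-likelihood, R 4.3.3), with Benjamini-Hochberg adjustment over all genes tested. The SE is the log2 fold change divided by the root of F. CPM use the TMM-scaled total, and a fold against libraries with 3 counts or fewer is a bound against 3 counts.

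The members, companion lists and markers were chosen with earlier results of these data known. Every Serpin could be named, and those with a mean of at least 1 CPM were described by library. The values of 1 of these are not reported here, although it stays in the counts, sums and medians. From each companion list the 4 genes with the largest change among those with an adjusted p under 0.05 and at least 10 CPM were to be named; others named (the fibrillar collagens, P4hb, Sorl1, Anxa2, Plaur, Proc, Prtn3 and marker genes) were chosen after their values were seen. Alternatives were DESeq2 size factors, upper-quartile factors, library totals, no filter, 10 counts in every library, DESeq2 1.42.0, limma 3.58.1 voom, the replicate block, summed copies, a stricter threshold (adjusted p under 1e-04, at least 2-fold) and leaving out each library; leaving out pairs 4 and 5 was added after seeing the data.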

Additional observations from a re-analysis of the deposited data

Results flagged for a closer look

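In 6 of the 34 groups of 5 libraries looked at for the 18 Serpins with a mean of at least 1 CPM, the highest library stood apart from the other 4 by Dixon's ratio. By chance about 1 in 20 groups of normally distributed values, or 1.7 here, would have an outlier at either end by this ratio. Only the high end is counted here, where chance gives fewer, and CPM need not be normally distributed. Genes of 1 library are also not independent.

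Of these 6 values, 5 came from basal replicate 4. Serpinb2 was at 87.5 CPM there, against 0 to 17.6 CPM in the other basal libraries, and Serpinb10 at 66.8 CPM against 0 to 8.57 CPM. Serpinb8 was at 7.25 CPM against 0 to 0.819 CPM, Serpina3h at 6.94 CPM against 0 to 1.02 CPM, and Serpinb6a at 179.5 CPM against 88.5 to 110.1 CPM. In the same library 3.52% of all genes tested had a value that stood apart in this way. The sixth was Serpinb12 in basal replicate 2, at 4.43 CPM against 1.68 to 2.09 CPM.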

How the results depend on the processing

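Of 314 values of single Serpins under the alternatives, 274 changed neither direction nor call. Serpinh1, Serpina3n, Serping1, Serpinf1, Serpinb5, Serpinb6b and Serpinb12 stayed higher in basal cells with an adjusted p under 0.05 in every alternative run for them. For Serpinb6b these included the sum over Serpinb6 copies (-0.55), of which Serpinb6a made up 98.8% in luminal and 85% in basal cells. That sum cannot show whether the Serpinb6b call held, which rests on the other alternatives. The number of Serpins higher in basal cells, 11, became 18 with no filter, where Serpina9 (adjusted p = 6.10e-05), Serpina3h, Serpina3i, Serpina3g, Serpina11, Serpinb1b and Serpinb7 were added (edgeR). It became 6 with at least 10 counts in every library, which tests fewer genes, and 7 at an adjusted p under 1e-04 with at least 2-fold, and ran from 8 to 13 when 1 library was left out. With the replicate block, the paired fit, it was 12, Serpinb9 being added, and no other Serpin call changed. The 1 Serpin higher in luminal cells, Serpine2, became 0 with limma voom, at the stricter threshold, without pair 4 and without pairs 4 and 5, and 0 to 1 when 1 library was left out. The clade B median of -1.62 over 8 genes was -1.92 to -1.11 when 1 library was left out. It was -0.52 with at least 10 counts in every library, where 3 of the genes were left, and -0.81 without pair 4 and -0.87 without pairs 4 and 5, where 6 were left, Serpinb2 and Serpinb10 having dropped out of the test. Over the same 3 and 6 genes the medians with all libraries and the usual filter were -0.52 and -0.89. Serpinb8 reversed to 0.88 with limma voom, 0.45 with the replicate block, 1.14 without pair 4 and 0.92 without pairs 4 and 5, and ran from -0.88 to 1.31 when 1 library was left out. The 29 companion genes higher in luminal cells became 19 with at least 10 counts in every library. Library totals and upper-quartile factors moved the median of all genes by 0.19 and 0.12. Where no construction is named, the cause was not tested. A Serpin under about 0.2 CPM rests on 3 counts or fewer and could not be compared at this depth.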
